A study of Mus musculus with 12 samples.

Results

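The genes described here are 10 regulators and markers of the epithelial-mesenchymal transition: the adhesion molecules Cdh1, Epcam and Cdh2, the filament and matrix genes Vim and Fn1, and the transcription factors Snai1, Snai2, Zeb1, Zeb2 and Twist1. They were chosen by name from the 55421 genes of the deposited count table, and all 10 passed the filter on low counts that left 18108 genes for testing. In the epithelial-mesenchymal transition, epithelial cells loosen their E-cadherin junctions and take on the filaments, matrix and motility of mesenchymal cells. Transcription factors of the SNAI, ZEB and TWIST families bind E-box sequences and repress epithelial genes, Cdh1 above all. In squamous carcinomas the programme is often partial, so that epithelial and mesenchymal genes are read in the same cells.

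MOC2 is a mouse oral squamous cell carcinoma line. The study asked how vesicles released by senescent tumour cells shape the response of their surroundings, and used derivatives of MOC2 that release extracellular vesicles (EVs) or in which that release was blocked genetically. Cells grown in culture were given 600 nM paclitaxel, a microtubule-stabilising drug, for 48 hours to bring on senescence, or the solvent DMSO. Poly(A)+ RNA of each culture was sequenced in bulk.

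The 4 groups, of 3 libraries each, were EV-proficient cells with DMSO, EV-proficient cells with paclitaxel, EV-deficient cells with DMSO and EV-deficient cells with paclitaxel. Each EV label stands for a single derivative of the line, titled MOC2-25 for the proficient and MOC2-27 for the deficient cells, so EV status and any other difference between the derivatives cannot be told apart. The labels used here do not name the altered gene. They also do not say whether the 3 libraries of a group came from separate cultures, so p-values measure only the spread between these samples.

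Library totals ran from 23263472 to 62955757 counts, and the lowest count of any of the 10 genes in a library was 31. Keratins were abundant, with 5 of 7 listed keratinocyte markers over 1 CPM, the count scaled to the library's total, in every group. Their summed level ran from 3692 to 4169 CPM in EV-proficient DMSO and from 2231 to 2581 in EV-proficient paclitaxel libraries. It ran from 4431 to 4872 in EV-deficient DMSO and from 1877 to 1940 in EV-deficient paclitaxel libraries. Most of each sum was Krt8 and Krt18, at means of 2196 and 1274 CPM in EV-proficient DMSO and 970 and 717 in EV-deficient paclitaxel libraries. Of the listed markers, Krt5 and Trp63 were nearly absent, with at most 8 and 11 counts in a library. Krt14, a basal keratin like Krt5, was abundant. It averaged 191 CPM in EV-proficient libraries with either treatment, 681 in EV-deficient DMSO and 80.0 in EV-deficient paclitaxel libraries. Summed markers of fibroblasts were low but higher with paclitaxel, at 1.46 to 2.57 CPM with DMSO and 5.58 to 6.60 with paclitaxel in EV-proficient and 2.71 to 3.59 and 6.72 to 8.77 in EV-deficient libraries. Those of leukocytes were 1.31 to 1.58 and 12.1 to 13.7 CPM in EV-proficient and 13.1 to 13.6 and 5.13 to 7.87 in EV-deficient libraries, most of it Csf1r, while the T-cell marker Cd3e had at most 3 counts in any library. Endothelial markers summed to between 1.77 and 4.41 CPM. The part of other cell types in the results was not tested.

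The EV labels need a caution before the results. A row named dngfr, which the authors added to the mouse genes, averaged 8.99 ± 3.23 CPM (SD, n = 3) in EV-proficient DMSO libraries and 10.9 ± 1.42 in EV-deficient paclitaxel libraries. It averaged only 3.24 ± 0.68 in paclitaxel libraries of the proficient label and 2.14 ± 0.35 in DMSO libraries of the deficient label. The labels do not say which derivative carries this sequence, but its level did not follow the EV label across the treatments. The EV difference also changed sign between treatments in 2722 of the 2834 genes called in both (96.0%). Whether libraries changed places between the labels was not tested. Paclitaxel results are therefore given by label and also as a mean over both EV labels, which does not depend on how the labels were assigned within a treatment, or against the DMSO group of the other label. Directions given for 1 label alone carry this caution throughout, in the related genes too.

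With paclitaxel, EpCAM, Twist1, Snai1 and fibronectin RNA rose and E-cadherin and vimentin RNA fell in the mean over both EV labels. N-cadherin, Zeb1 and Zeb2 went in opposite directions under the 2 labels. In EV-proficient cells all 10 genes passed edgeR's quasi-likelihood test at a Benjamini-Hochberg adjusted p under 0.05, 4 higher and 6 lower, where 58.2% of all tested genes passed, 31.1% higher and 27.1% lower. In EV-deficient cells 6 of the 10 passed, 5 higher and 1 lower, against 62.9% of all genes, 32.4% higher and 30.5% lower. In the mean over both labels 9 passed, 6 higher and 3 lower, against 68.4% of all genes, 37.1% higher and 31.3% lower. Since most tested genes passed in each of these, the counts alone do not set the 10 genes apart, and the sizes carry the description. With upper-quartile scaling, 63.4% of the called genes were higher in EV-deficient cells, rather than 51.5%, where that scaling moved the median log2 change of all genes from 0.07 to 0.26. In the mean over both labels 63.0% were then higher, rather than 54.2%, and the median moved from 0.07 to 0.19. The median absolute log2 fold change of the 10 genes was 1.09 in EV-proficient cells, against 0.54 over all tested genes. In EV-deficient cells it was 0.30 against 0.60, and in the mean over both labels 0.48 against 0.51. With the DMSO group of the other label it was 0.42 against 0.57 for EV-deficient and 0.54 against 0.51 for EV-proficient paclitaxel. The larger size under the proficient label was thus not seen in the mean over both labels. In this bulk RNA, fewer cells with a transcript and less transcript per cell cannot be told apart.

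**Figure D1:**
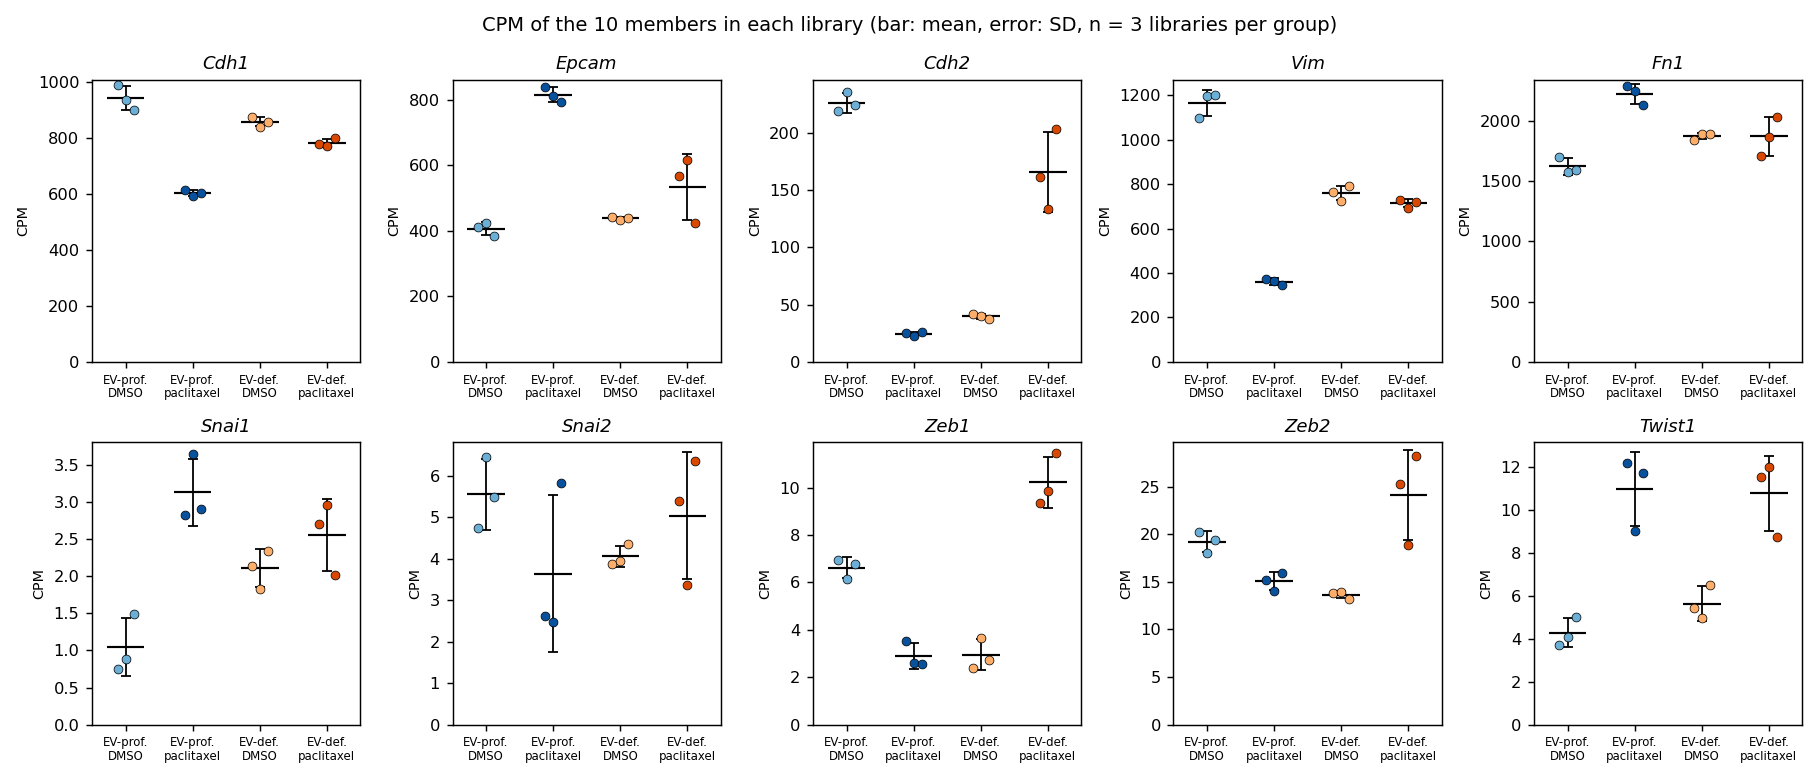
CPM of each of the 10 genes in every library; points are libraries, horizontal bars the group mean and error bars the SD (n = 3 per group), and every axis starts at 0. Epcam and Twist1 stand higher with paclitaxel under both labels, while Cdh2 and Zeb1 are high in EV-proficient DMSO and EV-deficient paclitaxel libraries and low in the other groups.

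Cdh1 (ENSMUSG00000000303, chr8:106603351-106670246 on GRCm38, plus strand) encodes E-cadherin, the calcium-dependent adhesion molecule of epithelial junctions. EV-proficient libraries held 990, 938 and 902 CPM with DMSO and 615, 595 and 606 CPM with paclitaxel. EV-deficient libraries held 875, 842 and 860 CPM with DMSO and 779, 774 and 800 CPM with paclitaxel. Every paclitaxel library was below every DMSO library, and the drop was deeper under the proficient label. The log2 fold change was -0.64 ± 0.05 (SE, adjusted p = 1.45e-09) in EV-proficient and -0.13 ± 0.05 (adjusted p = 0.0378) in EV-deficient cells by edgeR. The smaller of these turned to 0.05 under upper-quartile scaling, and lost its call, at -0.12 to -0.15, without EV-deficient DMSO library 1 or 3 or EV-deficient paclitaxel library 1 or 2. It also lost it, at -0.07 to -0.12, with median-of-ratios scaling, the filter of 1 CPM and a fit of only the groups compared. Across labels, EV-proficient paclitaxel against EV-deficient DMSO gave -0.51 ± 0.05 and EV-deficient paclitaxel against EV-proficient DMSO gave -0.27 ± 0.05, and the mean over both labels was -0.39 ± 0.04 (adjusted p = 8.23e-09, edgeR). With upper-quartile scaling the second of these cross-label values was -0.11 and did not pass (adjusted p = 0.0606, edgeR).

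Epcam (ENSMUSG00000045394, chr17:87635979-87651129, plus strand) encodes the epithelial cell adhesion molecule, a surface glycoprotein of simple epithelia and carcinomas. Its level in EV-proficient libraries was 412, 424 and 386 CPM with DMSO and 839, 814 and 795 CPM with paclitaxel, a clean separation. In EV-deficient libraries it was 443, 434 and 439 CPM with DMSO and 567, 616 and 423 CPM with paclitaxel. Here the groups overlapped, because the third paclitaxel library lay below all DMSO libraries of its label. The fold change was 2.00 in EV-proficient cells (log2 1.00 ± 0.09, adjusted p = 4.25e-09, edgeR) and 1.22 in EV-deficient cells (log2 0.29 ± 0.09, adjusted p = 0.00812, edgeR). Without EV-deficient paclitaxel library 1 or library 2 the latter was no longer called, at log2 0.23 and 0.18. The mean over both labels was 0.64 ± 0.06. Of these epithelial adhesion genes, Cdh1 was thus lower and Epcam higher with paclitaxel.

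Cdh2 (ENSMUSG00000024304, chr18:16588877-16809246, minus strand) encodes N-cadherin, the cadherin of neurons and mesenchymal cells that replaces E-cadherin in a full transition. EV-proficient libraries held 218, 235 and 224 CPM with DMSO and 24.9, 22.6 and 25.7 CPM with paclitaxel. EV-deficient libraries held 42.1, 39.7 and 37.7 CPM with DMSO and 161, 133 and 203 CPM with paclitaxel. No 2 of the 4 groups overlapped, and Cdh2 had the widest range of the 10 genes, 9.27-fold between its highest and lowest group mean. The paclitaxel change was -3.22 ± 0.11 on the log2 scale in EV-proficient cells (adjusted p = 2.45e-15, edgeR), larger in absolute size than 97.0% of tested genes. In EV-deficient cells it was 2.06 ± 0.10 (adjusted p = 4.49e-13, edgeR). The difference between these responses, the interaction, was 5.27 ± 0.15. Against the DMSO group of the other label, Cdh2 was lower with paclitaxel both times, by log2 -0.71 ± 0.11 for EV-proficient and -0.45 ± 0.10 for EV-deficient paclitaxel libraries. The second value ran from -0.66 to -0.35 with a library left out. It ran from -0.46 to -0.29 over the other settings and kept its call in all these fits. The mean over both labels was -0.58 ± 0.07. The direction under the deficient label thus depends on which DMSO group is the control.

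Vim (ENSMUSG00000026728, chr2:13573927-13582826, plus strand) encodes vimentin, the intermediate filament of mesenchymal cells. EV-proficient libraries held 1100, 1199 and 1204 CPM with DMSO and 374, 364 and 345 CPM with paclitaxel, a 3.23-fold fall (log2 -1.69 ± 0.06, adjusted p = 3.15e-15, edgeR). EV-deficient libraries held 766, 725 and 790 CPM with DMSO and 730, 694 and 720 CPM with paclitaxel. These overlapped, and the change of -0.09 ± 0.06 did not pass the test (95% interval -0.21 to 0.03, adjusted p = 0.186, edgeR). Under the proficient label vimentin thus had both the highest and the lowest group, with both deficient groups in between. Across labels it was lower with paclitaxel in each case, by log2 -1.07 ± 0.06 against EV-deficient DMSO and -0.71 ± 0.06 against EV-proficient DMSO. The mean over both labels was -0.89 ± 0.04.

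Fn1 (ENSMUSG00000026193, chr1:71585520-71653200, minus strand) encodes fibronectin, the matrix glycoprotein that cells bind through integrins. It was measured at 1702, 1570 and 1594 CPM in EV-proficient DMSO libraries and at 2286, 2243 and 2127 CPM with paclitaxel. EV-deficient libraries held 1839, 1885 and 1892 CPM with DMSO and 1709, 1868 and 2029 CPM with paclitaxel. The first pair separated fully, and in the second the paclitaxel libraries spanned the DMSO libraries. Fibronectin RNA rose 1.37-fold in EV-proficient cells (log2 0.45 ± 0.06, adjusted p = 1.88e-06, edgeR). In EV-deficient cells the log2 change was -0.003 ± 0.06, with a 95% interval of -0.13 to 0.13 (adjusted p = 0.970, edgeR). Upper-quartile scaling turned this value to 0.18 (adjusted p = 0.0136, edgeR). The mean over both labels was 0.22 ± 0.04 (adjusted p = 1.03e-04, edgeR). EV-deficient paclitaxel against EV-proficient DMSO gave 0.20 ± 0.06 (adjusted p = 0.00693, edgeR), or 0.09 without a call (adjusted p = 0.181) when EV-deficient paclitaxel library 3 was left out. Over the other settings of scaling, filter, tool and model this comparison reached 0.36 and the mean over both labels 0.35. Fn1 had the narrowest range of the 10 genes, 1.37-fold over the 4 group means. Vimentin and fibronectin, both read as mesenchymal genes, moved in opposite directions in EV-proficient cells.

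Snai1 (ENSMUSG00000042821, chr2:167538195-167542814, plus strand) encodes Snail, a zinc-finger repressor of Cdh1 whose protein is turned over quickly. EV-proficient libraries held 0.755, 0.885 and 1.49 CPM with DMSO and 2.83, 3.66 and 2.91 CPM with paclitaxel. EV-deficient libraries held 2.14, 1.83 and 2.35 CPM with DMSO and 2.70, 2.96 and 2.02 CPM with paclitaxel. The lowest 3 values were the EV-proficient DMSO libraries, and the EV-deficient groups overlapped. Snai1 rose 3.04-fold in EV-proficient cells (log2 1.60 ± 0.26, adjusted p = 1.81e-05, edgeR). The change in EV-deficient cells, 0.28 ± 0.24, did not pass (95% interval -0.22 to 0.78, adjusted p = 0.329, edgeR). With the controls of the other label the log2 changes were 0.58 ± 0.24 (adjusted p = 0.0473) and 1.30 ± 0.26 (adjusted p = 1.75e-04), and the mean over both labels was 0.94 ± 0.18. The first of these, EV-proficient paclitaxel against EV-deficient DMSO, held its call in 4 of 12 fits with a library left out. It lost the call, at 0.43 to 0.65, without any 1 of the EV-deficient DMSO or EV-proficient paclitaxel libraries, EV-proficient DMSO library 2 or EV-deficient paclitaxel library 1. It also missed the threshold with a replicate block (adjusted p = 0.0566) and without the low-count filter (adjusted p = 0.0865, edgeR).

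Snai2 (ENSMUSG00000022676, chr16:14705852-14709385, plus strand) encodes Slug, the second Snail-family repressor, which also acts in basal keratinocytes. EV-proficient libraries held 4.73, 6.44 and 5.47 CPM with DMSO and 2.63, 2.46 and 5.83 CPM with paclitaxel. EV-deficient libraries held 3.87, 3.94 and 4.34 CPM with DMSO and 5.39, 3.35 and 6.35 CPM with paclitaxel. Both pairs overlapped, and the third EV-proficient paclitaxel library, the shallowest of all, was more than 2 times as high as its replicates. The fall in EV-proficient cells (log2 -0.66 ± 0.27, adjusted p = 0.0368, edgeR) became -1.16 without that library and lost its call without EV-proficient DMSO library 2 (-0.54) or 3 (-0.68) or EV-proficient paclitaxel library 1 (-0.53) or 2 (-0.50). Under upper-quartile scaling it was -0.60 and did not pass (adjusted p = 0.0634, edgeR). The change in EV-deficient cells was 0.32 ± 0.26 (adjusted p = 0.291, edgeR), from 0.11 without EV-deficient paclitaxel library 3 to 0.54 without library 2, with no call in any of the 12 fits. Over both labels the mean was -0.17 ± 0.18 (adjusted p = 0.416, edgeR), or -0.43 (adjusted p = 0.0164) without EV-proficient paclitaxel library 3. Of the 10 genes, Snai2 was the only one with no call in that mean.

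Twist1 (ENSMUSG00000035799, chr12:33957671-33959829, plus strand) encodes a basic helix-loop-helix factor of mesoderm and neural crest. Its values were 3.73, 4.09 and 5.03 CPM in EV-proficient DMSO libraries and 12.2, 9.03 and 11.7 CPM with paclitaxel. In EV-deficient libraries they were 5.42, 4.98 and 6.53 CPM with DMSO and 11.6, 12.03 and 8.76 CPM with paclitaxel. All 6 paclitaxel libraries were above all 6 DMSO libraries, so the rise did not depend on the choice of control. It was 2.57-fold in EV-proficient cells (log2 1.36 ± 0.16, adjusted p = 3.58e-07) and 1.91-fold in EV-deficient cells (log2 0.93 ± 0.16, adjusted p = 2.47e-05, edgeR). The mean over both labels, 1.15 ± 0.11, was the largest absolute change of the 10 genes there. The interaction of -0.43 ± 0.23 did not pass (95% interval -0.90 to 0.04, adjusted p = 0.145, edgeR), the only such case among the 10.

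Zeb1 (ENSMUSG00000024238, chr18:5591860-5775467, plus strand) and Zeb2 (ENSMUSG00000026872, chr2:44983632-45117395, minus strand) encode paired zinc-finger repressors that bind E-boxes and recruit the CtBP corepressors. For Zeb1, EV-proficient libraries held 6.94, 6.13 and 6.79 CPM with DMSO and 3.54, 2.62 and 2.55 CPM with paclitaxel. EV-deficient libraries held 2.41, 3.67 and 2.74 CPM with DMSO and 9.37, 9.84 and 11.5 CPM with paclitaxel. Zeb1 was high in EV-proficient DMSO and highest in EV-deficient paclitaxel libraries, the same groups in which Cdh2 was high. It fell 2.26-fold in EV-proficient cells (log2 -1.18 ± 0.17, adjusted p = 5.41e-06) and rose 3.48-fold in EV-deficient cells (log2 1.80 ± 0.17, adjusted p = 6.18e-09, edgeR). Its interaction was 2.98 ± 0.24. With the controls exchanged, EV-proficient paclitaxel did not differ detectably from EV-deficient DMSO (log2 -0.004 ± 0.18, 95% interval -0.38 to 0.37), while EV-deficient paclitaxel was above EV-proficient DMSO (0.63 ± 0.16, adjusted p = 0.00209, edgeR).

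Zeb2, like Zeb1, had its highest means in the EV-deficient paclitaxel and EV-proficient DMSO groups, over a smaller range of group means, 1.77-fold against 3.52-fold for Zeb1. EV-proficient libraries held 20.2, 18.0 and 19.4 CPM with DMSO and 15.2, 14.1 and 16.0 CPM with paclitaxel. EV-deficient libraries held 13.8, 13.9 and 13.2 CPM with DMSO and 25.3, 18.9 and 28.2 CPM with paclitaxel. The groups of each label did not overlap, with the fall under the proficient and the rise under the deficient label. These were -0.35 ± 0.12 (adjusted p = 0.0126) and 0.82 ± 0.11 (adjusted p = 1.78e-06, edgeR). Against the DMSO group of the other label, EV-proficient paclitaxel gave 0.14 ± 0.12, with the opposite sign and no call (adjusted p = 0.322, edgeR). EV-deficient paclitaxel gave 0.33 ± 0.11 (adjusted p = 0.0153, edgeR), with overlapping libraries, and lost its call, at 0.16 to 0.28, without EV-proficient DMSO library 2 or EV-deficient paclitaxel library 1 or 3. The means over both labels, 0.31 ± 0.12 for Zeb1 and 0.24 ± 0.08 for Zeb2, passed the test (adjusted p = 0.0266 and 0.0141, edgeR) but not in every fit with a library left out. Zeb1 lost its call, at 0.20 to 0.28, without EV-deficient DMSO library 1 or 3, EV-deficient paclitaxel library 3, EV-proficient DMSO library 2 or EV-proficient paclitaxel library 1. Zeb2 lost it, at 0.15 to 0.20, without EV-deficient paclitaxel library 1 or 3 or EV-proficient paclitaxel library 1 or 3.

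**Figure D2:**
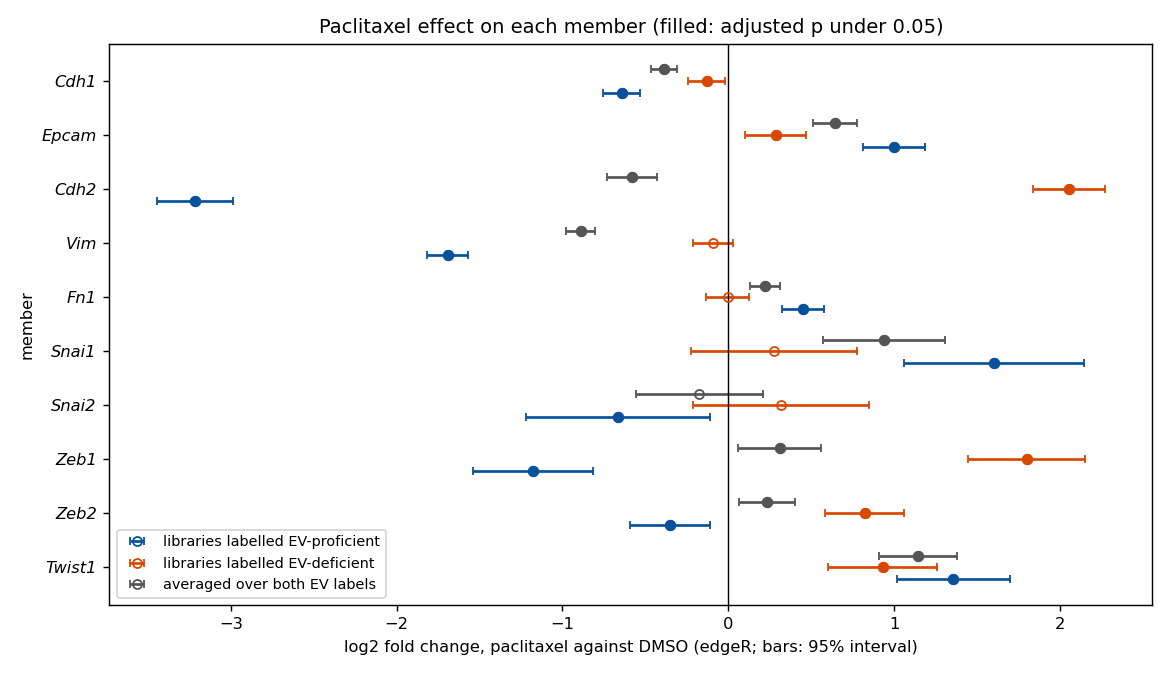
Log2 fold change of paclitaxel against DMSO for each of the 10 genes from edgeR, with 95% intervals, in libraries labelled EV-proficient (blue), EV-deficient (orange) and averaged over both labels (grey); filled points have an adjusted p under 0.05. Twist1 and Epcam lie right of 0 and Cdh1 left of 0 in all 3 estimates, while Cdh2 runs from -3.22 to 2.06 between the labels.

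The 3 EV-deficient paclitaxel libraries differed among themselves in an order that most, but not all, of the 10 genes shared. Library 3 was the highest in Cdh2, Zeb1, Zeb2, Snai2, Fn1 and Cdh1 and the lowest in Epcam, Snai1 and Twist1. Library 2 was the lowest in Cdh2, Zeb2, Snai2, Vim and Cdh1 and the highest in Epcam, Snai1 and Twist1. Library 1 was the lowest in Zeb1 and Fn1 and the highest in Vim. The coefficient of variation in this group was 21.1% for Cdh2 and 18.7% for Epcam, against 3.82% and 4.80% in the EV-proficient DMSO group. The dngfr row ran from 9.62 to 12.4 CPM in these 3 libraries, and its part in their differences was not tested.

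Promoter sequences are shown for the 3 genes with the largest rise in the mean over both labels: Epcam, Snai1 and Twist1. Each is the 250 bases before the gene's start from RefSeq (GRCm38.p6), written 5′ to 3′ on the gene's strand. Capitals mark E-boxes, found by searching CANNTG on both strands; within these, CAGGTG and its reverse complement CACCTG are the letters that Snail and Zeb proteins prefer. The windows are chr17:87635729-87635978 (plus), chr2:167537945-167538194 (plus) and chr12:33957421-33957670 (plus).
Epcam: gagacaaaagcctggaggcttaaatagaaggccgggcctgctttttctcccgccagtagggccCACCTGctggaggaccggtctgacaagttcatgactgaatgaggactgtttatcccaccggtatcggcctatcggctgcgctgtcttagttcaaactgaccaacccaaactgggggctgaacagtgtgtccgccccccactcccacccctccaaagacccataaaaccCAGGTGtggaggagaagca
Snai1: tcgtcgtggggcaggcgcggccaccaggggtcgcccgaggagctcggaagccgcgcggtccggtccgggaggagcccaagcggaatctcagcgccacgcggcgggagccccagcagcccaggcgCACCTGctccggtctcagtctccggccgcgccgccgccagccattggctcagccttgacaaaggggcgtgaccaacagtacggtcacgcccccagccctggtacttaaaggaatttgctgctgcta
Twist1: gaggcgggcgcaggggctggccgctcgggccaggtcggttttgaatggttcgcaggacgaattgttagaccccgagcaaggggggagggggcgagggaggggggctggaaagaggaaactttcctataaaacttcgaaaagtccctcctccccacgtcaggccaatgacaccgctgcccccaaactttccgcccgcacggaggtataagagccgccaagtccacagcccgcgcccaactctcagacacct
The Epcam window held 2 E-boxes, a CACCTG starting 187 bases and a CAGGTG starting 19 bases before the gene's start. The Snai1 window held 1, a CACCTG starting 126 bases before its start, and the Twist1 window held no CANNTG. Neither did the 1 Zeb2 window clear of annotated exons, which is not printed. Of the 32851 mouse promoter windows of this length, 17.2% held CAGGTG or CACCTG and 66.2% held CANNTG in any form. These matches describe letters in a window, and binding was not measured in these samples. Windows were taken for 5 of the 10 genes: Epcam, Snai1, Twist1, Vim and Zeb2. No entry was found for Cdh1, Snai2 and Fn1. Cdh2 and Zeb1 were left out of this step, so their absence here does not mean that they had no entry.

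The difference between the EV labels reversed with treatment. Among DMSO libraries, 6 of the 10 genes differed between EV-deficient and EV-proficient cells by edgeR, 2 higher (Snai1 and Fn1) and 4 lower (Cdh2, Vim, Zeb1 and Zeb2) in the deficient cells. The share of all genes called was 23.0%, with 12.4% higher and 10.6% lower. With paclitaxel 7 differed, 5 higher (Cdh2, Zeb1, Vim, Zeb2 and Cdh1) and 2 lower (Epcam and Fn1), against 37.8% of all genes, 16.0% higher and 21.8% lower. These comparisons share no libraries. Cdh2 was lower in deficient cells by log2 -2.50 ± 0.11 with DMSO and higher by 2.77 ± 0.11 with paclitaxel. Zeb1 gave -1.17 ± 0.17 and 1.80 ± 0.17, Vim -0.62 ± 0.06 and 0.98 ± 0.06, and Zeb2 -0.49 ± 0.12 and 0.68 ± 0.11. Fn1 went the other way, from 0.21 ± 0.06 to -0.25 ± 0.06. The first of these lost its call, at 0.17 to 0.21, in 6 fits: without EV-deficient DMSO library 2 or 3, EV-proficient DMSO library 2 or 3, or EV-proficient paclitaxel library 1 or 2. The second was -0.15 (adjusted p = 0.0543, edgeR) under upper-quartile scaling, where 58.2% of the called genes were higher in the deficient cells, rather than 42.4%. All 5 genes called with both treatments thus had opposite signs, as had 96.0% of such genes over the table. The fitted signs of the other 5 genes were also opposite, though not every value passed. For Twist1 the sign with paclitaxel is not determined, at -0.03 ± 0.15 (adjusted p = 0.914, edgeR) and up to 0.11 with a library left out. Snai2 with paclitaxel was 0.53 ± 0.26 (adjusted p = 0.121, edgeR), and 0.98 or 0.77 with a call without EV-proficient paclitaxel library 3 or EV-deficient paclitaxel library 2. It was also called without the low-count filter (0.51, adjusted p = 0.0350, edgeR) and with limma-voom (0.73, adjusted p = 0.0254). Cdh1 with DMSO was -0.14 ± 0.05 (adjusted p = 0.0726, edgeR), and -0.18 with a call without any 1 of the 6 paclitaxel libraries. It was also called in 6 of 8 other settings of scaling, filter, tool and model. The median log2 difference of the 10 genes was -0.29 with DMSO (0.04 over all genes) and 0.45 with paclitaxel (-0.005 over all genes).

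The interaction, the paclitaxel change in EV-deficient cells minus that in EV-proficient cells, passed for 9 of the 10 genes by edgeR, 6 higher and 3 lower. Of all tested genes 40.7% passed, 16.9% higher and 23.8% lower. The median over the 10 genes was 0.75, against -0.04 over all genes. It was positive for Cdh2, Zeb1, Vim, Zeb2, Snai2 and Cdh1 and negative for Snai1, Epcam and Fn1. The Snai2 value, 0.98 ± 0.37 (adjusted p = 0.0379), held its call in 3 of 12 fits with a library left out, those without EV-proficient DMSO library 1, EV-proficient paclitaxel library 3 or EV-deficient paclitaxel library 2, and lost it in the others, at 0.81 to 1.02. It was highest, at 1.48, without EV-proficient paclitaxel library 3. Under upper-quartile scaling 53.9% of all called interactions were positive, rather than 41.4%. Whether these interactions reflect vesicle release, the derivative or the assignment of libraries cannot be told apart here.

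Ratios of 2 genes within a library do not depend on its scaling. For these and for the levels that follow, counts were divided by the length of each gene's longest transcript in GENCODE M21. The ratio of E-cadherin to N-cadherin was 4.57 ± 0.333 (SD, n = 3) in EV-proficient DMSO libraries, 27.2 ± 1.48 in those with paclitaxel, 23.6 ± 1.16 in EV-deficient libraries with DMSO and 5.31 ± 1.02 in EV-deficient libraries with paclitaxel. E-cadherin thus exceeded N-cadherin in every library, and the ratio fell into a low pair and a high pair of groups. Within each pair the paclitaxel group had the higher mean, but in the low pair the libraries overlapped. The ratio of fibronectin to vimentin was 0.490 ± 0.0468, 2.16 ± 0.0108, 0.867 ± 0.0407 and 0.920 ± 0.0870 in the same order of groups. By the longest transcript, fibronectin exceeded vimentin per length only in the EV-proficient paclitaxel libraries. By the median transcript length it also did so in the means of the EV-deficient groups, 674 against 563 CPM per kb with DMSO and 673 against 529 with paclitaxel. The ratio of Epcam to Cdh1 was 0.938 ± 0.0400, 2.93 ± 0.0676, 1.11 ± 0.00932 and 1.48 ± 0.301, higher with paclitaxel against either DMSO group in all libraries. With 3 libraries against 3, a two-sided exact permutation test cannot go below 0.1, so no p is given for the ratios.

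**Figure D3:**
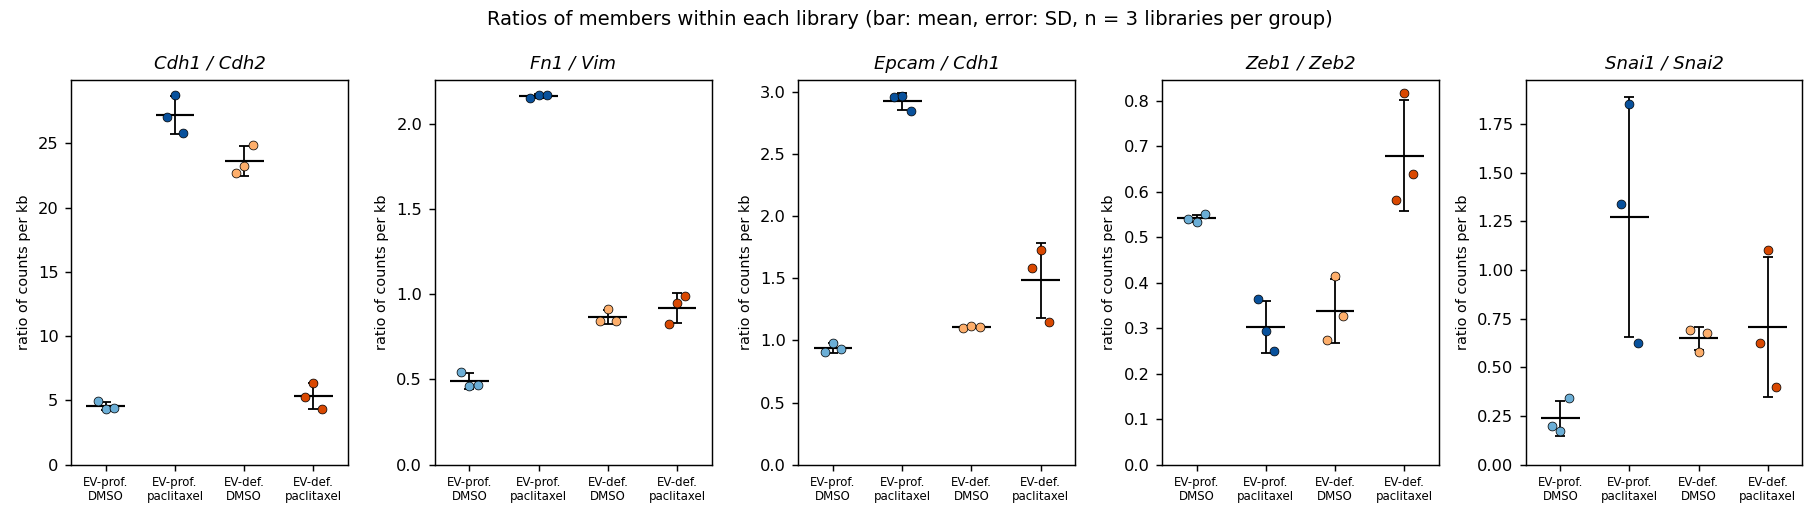
Ratios of counts per kb between pairs of the 10 genes within each library; points are libraries, bars the mean and error bars the SD (n = 3 per group), with axes from 0. Cdh1 over Cdh2 stands between 4.31 and 6.35 in EV-proficient DMSO and EV-deficient paclitaxel libraries and between 22.7 and 28.7 in the other libraries.

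Within the transcription factors, Zeb1 was below Zeb2 per length in every library, at ratios of 0.541 ± 0.00827, 0.303 ± 0.0578, 0.338 ± 0.0710 and 0.680 ± 0.123 in that order of groups. Snai1 over Snai2 was 0.237 ± 0.0904 in EV-proficient DMSO libraries, lower than in any other library of the study. With paclitaxel under that label it was 1.27 ± 0.617. EV-deficient libraries had 0.648 ± 0.0589 with DMSO and 0.708 ± 0.360 with paclitaxel, and these 3 groups overlapped.

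In level per length, Vim, Fn1, Epcam and Cdh1 stood far above the 5 transcription factors in all groups. In EV-proficient DMSO libraries Vim led with 399 ± 20.0 CPM per kb. Cdh1 (213 ± 9.92), Epcam (199.6 ± 9.58) and Fn1 (195.1 ± 8.41) followed with overlapping libraries. Cdh2 was next with 46.7 ± 1.78, and the 5 transcription factors lay between 0.644 and 2.74 CPM per kb. The median transcript length gives another order here: Fn1 stood second at 584 CPM per kb, and Zeb2, at 10.9, and Zeb1, at 4.90, stood above the other transcription factors. With paclitaxel the EV-proficient order became Epcam (400.0 ± 10.9), Fn1 (267 ± 9.90), Cdh1 (137 ± 2.26) and Vim (123 ± 4.99), with no overlap between neighbours. Twist1, at 6.75 ± 1.05 CPM per kb, there exceeded Cdh2, at 5.04 ± 0.326. EV-deficient DMSO libraries had the order Vim (260 ± 11.2), Fn1 (225 ± 3.44), Epcam (215 ± 2.27) and Cdh1 (194 ± 3.66). In EV-deficient paclitaxel libraries Epcam (262 ± 49.1) overlapped Vim (244 ± 6.36), which overlapped Fn1 (225 ± 19.2), and Cdh1 had 177 ± 3.15. The longest Vim transcript is a retained intron of 2926 bases. With its longest protein-coding transcript of 2193 bases, Vim would stand above Cdh1 in EV-proficient paclitaxel libraries, at 165 CPM per kb, and above Epcam in EV-deficient paclitaxel libraries, at 326.

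Other genes of the transition moved in both directions, as counts within each of 8 lists of related genes show. Of 24 epithelial adhesion and polarity genes, 6 rose and 7 fell with paclitaxel in EV-proficient cells, and 8 rose and 7 fell in EV-deficient cells, with list medians of 0.05 and 0.002 on the log2 scale beside 0.05 and 0.07 over all genes. Averaged over both labels, where 37.1% of all genes were higher and 31.3% lower, 9 of the 24 were higher and 9 lower. P-cadherin (Cdh3), the basal cadherin, rose by 1.36 ± 0.08 and fell by 2.32 ± 0.08. Its rise depends on the control, since EV-proficient paclitaxel against EV-deficient DMSO gave -0.88 ± 0.07. Its fall does so too, and nearly vanished against EV-proficient DMSO. Dsc2, a desmosomal cadherin, rose under both labels, by 1.03 ± 0.09 and 1.07 ± 0.09. Of 11 tested epithelial transcription and splicing regulators, 6 rose and 3 fell in EV-proficient cells and 2 rose and 5 fell in EV-deficient cells, with medians of 0.21 and -0.34. In the mean 4 were higher and 4 lower. Grhl2, a grainyhead factor that maintains epithelial junctions, rose by 0.65 ± 0.08 under the proficient label. The same gene fell by 0.93 ± 0.08 under the deficient label. Klf4 went with it, at 0.76 ± 0.07 and -0.77 ± 0.07. Means over both labels were small, at -0.14 ± 0.06 for Grhl2 (adjusted p = 0.0422) and -0.006 ± 0.05 for Klf4 (adjusted p = 0.917, edgeR).

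Among 16 other mesenchymal transcription factors, 7 rose and 2 fell in EV-proficient cells and 5 rose and 6 fell in EV-deficient cells, and the mean over both labels had 9 higher and 6 lower. Prrx1 had log2 changes of 3.60 ± 0.17 and -0.89 ± 0.14, with a mean of 1.35 ± 0.11. Id1, an inhibitor of helix-loop-helix factors, fell by 1.34 ± 0.14 and 0.79 ± 0.13. Of 23 tested mesenchymal markers and fibronectin-matrix genes, 10 rose and 7 fell in EV-proficient cells and 11 rose and 6 fell in EV-deficient cells, with medians of 0.21 and 0.29. Averaged over both labels, 9 were higher and 10 lower, with a median of 0.38. Among called genes of at least 5 CPM, the largest changes in EV-proficient cells were Sparc (2.78 ± 0.09), Tnc, Vcan and Thbs1 (-1.32 ± 0.06). Tenascin C (Tnc), a matrix glycoprotein, rose by 1.55 ± 0.12 in EV-proficient cells and fell by 4.25 ± 0.13 in EV-deficient cells. Versican (Vcan) did the reverse, at -1.35 ± 0.09 and 0.78 ± 0.09, so mesenchymal matrix genes did not share a direction within either label. Against the DMSO group of the other label both were lower with paclitaxel. Tnc gave -1.51 ± 0.11 for EV-proficient and -1.19 ± 0.12 for EV-deficient paclitaxel, and Vcan -0.32 ± 0.09 and -0.25 ± 0.09.

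Of 12 fibronectin receptor and assembly genes, 6 rose and 4 fell in EV-proficient and 3 rose and 5 fell in EV-deficient cells, with 5 higher and 4 lower in the mean over both. The integrin subunit Itgb5 rose by 1.93 ± 0.07 and 0.78 ± 0.06, and Tns1, which ties integrins to actin, by 1.69 ± 0.08 and 1.33 ± 0.08. Tns3, of the same family, fell by 1.03 ± 0.07 under each label. Of 18 corepressors and stability regulators of the SNAI, TWIST and ZEB proteins, 8 rose and 5 fell in EV-proficient and 6 rose and 7 fell in EV-deficient cells, with 9 higher and 6 lower in the mean. The corepressor genes Ctbp1 and Ctbp2 fell under both labels. For Ctbp1 the changes were -0.59 ± 0.07 and -0.92 ± 0.07, and for Ajuba, a LIM protein that binds Snail, -0.64 ± 0.07 and -1.03 ± 0.07.

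Of 18 tested genes of TGF-beta and other signalling, 9 rose and 5 fell in EV-proficient and 7 rose and 6 fell in EV-deficient cells, with 9 higher and 3 lower in the mean. Bmp7 had the widest swing, 3.92 ± 0.16 and -2.91 ± 0.15, and a mean of 0.51 ± 0.11. The receptor Fgfr1 went from 2.35 ± 0.06 to -0.92 ± 0.06, with a mean of 0.72 ± 0.04. Tgfb1 rose by 1.50 ± 0.09 in EV-deficient cells and by 0.88 ± 0.07 in the mean. All 8 genes for proteases that cleave E-cadherin and EpCAM passed in EV-proficient cells, 3 higher and 5 lower, and 6 passed in EV-deficient cells, 2 higher and 4 lower. In the mean 1 was higher and 4 lower. The gamma-secretase subunit gene Psen2 fell under both labels, by 0.80 ± 0.10 and 0.29 ± 0.09. The lists' shares of called genes, from 54.2% to 100% in EV-proficient and from 62.5% to 75.0% in EV-deficient cells, compare with 58.2% and 62.9% over all genes: 6 of the 8 lists lay above the first and 7 of the 8 above the second. In the mean the lists' shares ran from 62.5% to 93.8%, beside 68.4% over all genes.

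**Figure D4:**
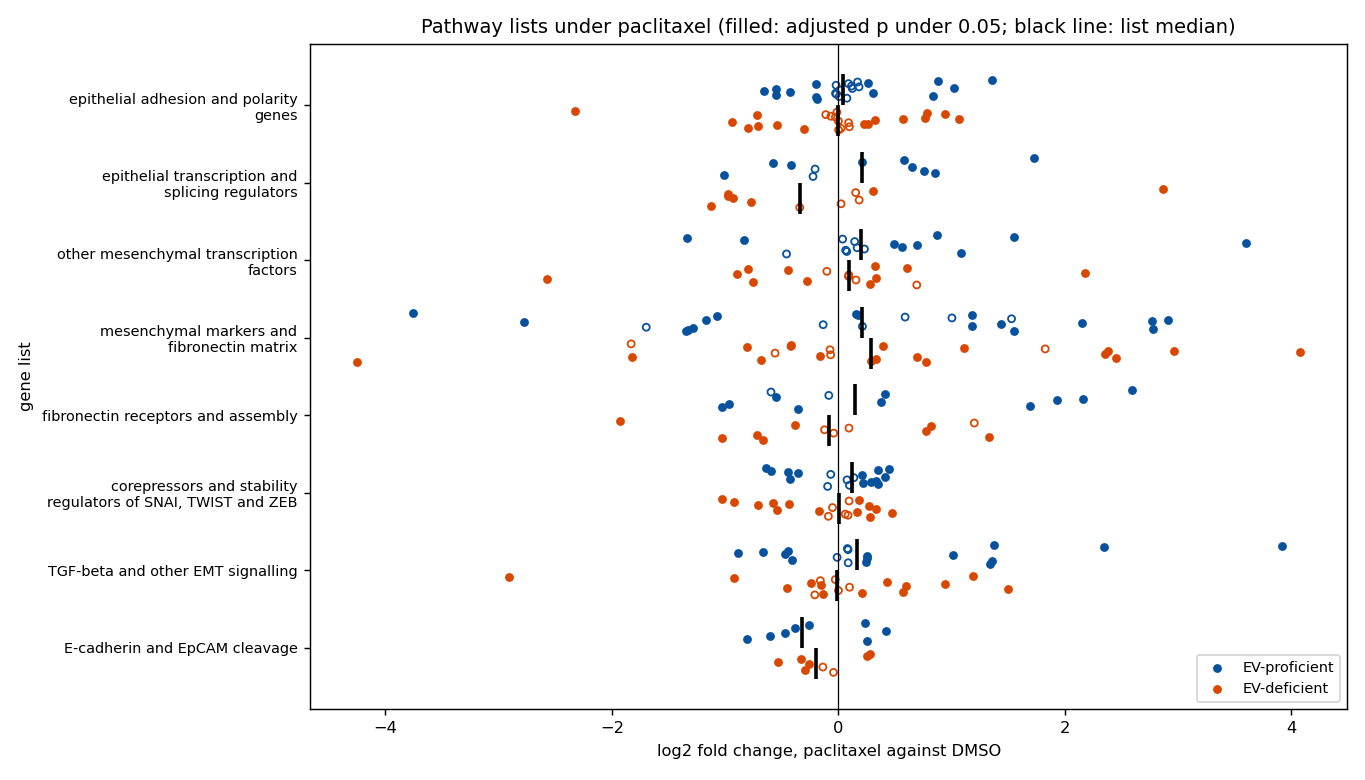
Log2 fold change of paclitaxel against DMSO for the tested genes of 8 lists, in libraries labelled EV-proficient (blue) and EV-deficient (orange); filled points have an adjusted p under 0.05 and black lines are list medians. Every list holds genes on both sides of 0, from -4.25 (Tnc, EV-deficient) upwards.

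For the 6 genes whose group means differed by at least 2-fold, the genes nearest in pattern were sought as the smallest root mean square difference of centred log2 CPM over the 12 libraries, among 9904 genes (9905 for Snai1) of at least 5 CPM on average. Nearest to Cdh2 was the homeobox gene Hoxb9, at 0.14 log2 units, with 45.7 ± 4.63, 4.84 ± 0.446, 7.43 ± 0.476 and 33.9 ± 0.851 CPM in the same order of groups as above (DMSO then paclitaxel, first under the proficient and then the deficient label). Nearest to Zeb1 was Ptprd, a receptor phosphatase gene, at 0.21. Apobec3 was nearest to Epcam at 0.08, Tmem120b to Vim at 0.08, Lzts2 to Snai1 at 0.20 and Paip2 to Twist1 at 0.15. Apobec3 had 82.1 ± 1.56, 172 ± 5.53, 93.1 ± 2.08 and 119 ± 20.1 CPM in the same order of groups. The likeness is over libraries that share these 4 groups and is given as a description.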

How the data were processed

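Bulk RNA-seq libraries of 4 groups of 3 were measured. The authors deposited a table of raw counts per gene, with no normalization. The submitters' processing notes name STAR 2.5.0a and the build GRCm38. The labels' protocols describe a stranded poly(A)+ library kit, and the strand setting of the counting is not given in the sources used here. Of 55421 genes, 3995 had no symbol and 35104 had any count. The 2 rows that the authors added to the table were left out of totals and tests, and no other column of values was left aside (0).

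Counts were tested in R 4.3.3 with edgeR 4.0.16 (filterByExpr at a minimum count of 10, TMM scaling, quasi-likelihood test, a mean per group over all 12 libraries), with Benjamini-Hochberg adjustment over 18108 genes at 0.05. CPM use TMM-scaled totals. Standard errors are those of the fitted coefficients, and fits were tested on simulated data. The TMM factors ran from 0.890 to 1.15. A count of 3 corresponded to between 0.0492 and 0.121 CPM, and this covers counting error only.

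The 5 comparisons are paclitaxel within each EV label, EV label within each treatment, and their interaction. The mean over both labels and the comparisons across labels were added after the data were seen, as was the length of the longest protein-coding Vim transcript. The 10 genes were named in every comparison. From each list, some of at most 4 called genes with the largest absolute change at a mean of at least 5 CPM were named. The genes nearest in pattern were named for the genes with a group range of at least 2-fold. Of 134 list genes, 130 were tested. The 10 genes and the lists were chosen with earlier results of these data known. The alternatives tried were: other scalings (median of ratios, upper quartile); keeping all genes or those with 1 CPM in at least 3 libraries; limma-voom (limma 3.58.1) and DESeq2 1.42.0; a replicate block; a fit restricted to the groups in question; each library left out; and, for levels per length, the median transcript length.

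Coordinates and transcript lengths are from GENCODE M21 (GRCm38), and promoters are from RefSeq (GRCm38.p6). Genes that overlap the 10 genes had at most 18 counts in a library, except Apol7d within Fn1 with 5 to 69.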

Additional observations from a re-analysis of the deposited data

Results flagged for a closer look

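The response to paclitaxel differed between the EV labels by the interaction test (edgeR, adjusted p under 0.05) for 9 of the 10 genes, where 40.7% of all tested genes passed. On the log2 scale, as the response in EV-deficient minus that in EV-proficient libraries, the interaction was 5.27 ± 0.15 (SE) for Cdh2, 2.98 ± 0.24 for Zeb1, 1.60 ± 0.08 for Vim, 1.18 ± 0.16 for Zeb2 and 0.51 ± 0.08 for Cdh1. It was -0.72 ± 0.13 for Epcam, -0.46 ± 0.09 for Fn1 and -1.32 ± 0.35 for Snai1. For Snai2 it was 0.98 ± 0.37, with a call in 3 of 12 fits with a library left out.

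The dngfr row lies outside the mouse genes that the comparisons use, and reads were assigned to it in all 4 groups. EV-proficient libraries averaged 8.99 CPM with DMSO and 3.24 with paclitaxel. EV-deficient libraries averaged 2.14 with DMSO and 10.9 with paclitaxel, all above the level of 3 counts. The other added row, named gfp, had 0 counts in all 12 libraries. Cdh2 and Zeb1 were also high in the groups in which the dngfr row was high. What part an exchange of labels could have in this was not tested.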

How the results depend on the processing

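Over the 8 settings of scaling, filter, tool and model, the 10 genes gave 587 fold changes with the same direction and side of the threshold, 10 newly called, 8 no longer called and 15 with another sign. Apart from Cdh1 in EV-deficient cells, the values that changed sign had not passed the test. In EV-deficient cells the paclitaxel change of Fn1 was 0.0155 with median-of-ratios scaling and with DESeq2, 0.18 with upper-quartile scaling, 0.0609 with the filter of 1 CPM and 0.00908 with only the groups compared. With a library left out it ran from -0.0739 to 0.0462. Upper-quartile scaling turned Cdh1 to 0.0534 and Vim to 0.0946 there. The EV difference of Twist1 with paclitaxel was 0.0697 with upper-quartile scaling, 0.0142 with the filter of 1 CPM and 0.00105 with only the groups compared, and ran from -0.15 to 0.11 with a library left out. Against the other label's DMSO, Snai2 in EV-deficient paclitaxel libraries was 0.0226 with upper-quartile scaling and ran from -0.38 to 0.0441 with a library left out. Zeb1 in EV-proficient paclitaxel libraries was 0.0824 with upper-quartile scaling, 0.0176 with the filter of 1 CPM, 0.0246 with limma-voom and 0.00747 with only the groups compared, and ran from -0.19 to 0.18 with a library left out. The cause was not tested.

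With each library left out in turn, the number of the 10 genes called ran from 9 to 10 for paclitaxel in EV-proficient cells, 4 to 6 in EV-deficient cells, 5 to 7 for the EV difference with DMSO, 7 to 8 with paclitaxel, 8 to 9 for the interaction and 7 to 9 for the mean over both labels. Against the other label's DMSO they ran from 7 to 9 for EV-deficient and 6 to 7 for EV-proficient paclitaxel libraries. With all libraries, 11115 of the 18108 tested genes were called for EV-deficient and 10303 for EV-proficient paclitaxel libraries. Most tested genes thus passed in each of these comparisons, and the counts alone do not set the 10 genes apart. Without the low-count filter 64.1% of genes called for the EV difference with DMSO were higher, rather than 53.9%. Replicate numbers did not pair the samples: of 18 same-numbered pairs 0 correlated above 0.1 (r from -0.0812 to 0.0970), and 4 of 12 libraries correlated best with their own number. A replicate block gave 10, 6, 6, 7, 9 and 9 called genes in the first 6 comparisons, the same counts as without it. Against the other label's DMSO it gave 9 for EV-deficient paclitaxel, as without it, and 6 rather than 7 for EV-proficient paclitaxel, where Snai1 (0.57, adjusted p = 0.0566) lost its call. Levels per length and their order depend on the transcript length used. Snai1 had as few as 31 counts in a library, which limits its precision.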
